A study of Homo sapiens with 14 samples.

Results

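BRG1 and BAF155 peaks were compared in primed human embryonic stem cells (hESCs) to ask at which sites the ATPase and the scaffold subunit of the BAF complex were both called. The members were 58352 BAF155 peaks and 15611 BRG1 peaks on chromosomes 1 to 22 and X. They were divided into BAF155 peaks with a BRG1 peak (14557 regions), BAF155 peaks without BRG1 (43795 regions) and BRG1 peaks without BAF155 (198 regions). A pair counted as overlapping where at least 25% of either peak was covered by the other. These 58550 regions stood beside 222964 peaks in the 8 distinct lists of the series on the same chromosomes.

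The peaks came from chromatin immunoprecipitation and sequencing (ChIP-seq) of WIBR3 cells, an established hESC line. The primed cells were grown on inactivated mouse embryonic fibroblasts in conventional serum-containing medium with FGF2, and the naïve cells, used here for comparison alone, were converted from primed cells and kept on the same kind of feeders in 5i/L/A medium. BRG1 was precipitated with a commercial antibody and BAF155 with one made in a laboratory, with 75-bp single-end reads, while SOX2 was precipitated from fewer cells with 150-bp paired-end reads. The labels name no introduced allele, no drug beyond the medium and 1 cell line, and each of BRG1 and BAF155 had 1 library per state with 1 shared input, so replicate error is lacking for every value and no test between conditions was possible.

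The BAF complex is an ATP-dependent chromatin remodeller that slides or evicts nucleosomes and so alters the access of transcription factors to DNA. BRG1 (SMARCA4) and BRM (SMARCA2) are its mutually exclusive ATPases, and BAF155 (SMARCC1) is a core scaffold subunit on which the complex assembles. In embryonic stem cells the complex is known for its occupancy of enhancers and promoters of pluripotency genes, where the factors OCT4 and SOX2 bind.

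Sequences at sites of high fold enrichment are given as examples of the 3 classes. Fold enrichment is the signal of a peak over input DNA as the authors' peak caller gave it. The lines below give 300 bases of the plus strand of hg38 around the midpoint of a peak. Capitals mark the RE1 pattern (CAGCACC, any 2 bases, then GGACAG) or the SOX core (CATTGT or CTTTGT), each on either strand. These patterns do not separate the classes. RE1 was in 2.31% of BAF155 peaks with BRG1 and 0.331% of those without. In 200-bp windows at midpoints the SOX core was in 21.4% and 29.0% of these, and in 19.7% of BRG1 peaks without BAF155.
DLGAP3, BAF155 with BRG1: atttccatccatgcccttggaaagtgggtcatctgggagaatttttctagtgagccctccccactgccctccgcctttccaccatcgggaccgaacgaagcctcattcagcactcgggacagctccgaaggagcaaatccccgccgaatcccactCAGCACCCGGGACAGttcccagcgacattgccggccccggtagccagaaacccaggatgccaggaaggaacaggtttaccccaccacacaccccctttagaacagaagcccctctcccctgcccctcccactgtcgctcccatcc
C11orf87, BAF155 without BRG1: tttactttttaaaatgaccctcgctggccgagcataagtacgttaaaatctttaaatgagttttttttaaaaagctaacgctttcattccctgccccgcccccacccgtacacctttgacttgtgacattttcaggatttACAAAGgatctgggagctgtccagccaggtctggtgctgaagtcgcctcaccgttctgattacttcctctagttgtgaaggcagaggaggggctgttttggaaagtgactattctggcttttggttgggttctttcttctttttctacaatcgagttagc
DACH2, BAF155 without BRG1 but with SOX2: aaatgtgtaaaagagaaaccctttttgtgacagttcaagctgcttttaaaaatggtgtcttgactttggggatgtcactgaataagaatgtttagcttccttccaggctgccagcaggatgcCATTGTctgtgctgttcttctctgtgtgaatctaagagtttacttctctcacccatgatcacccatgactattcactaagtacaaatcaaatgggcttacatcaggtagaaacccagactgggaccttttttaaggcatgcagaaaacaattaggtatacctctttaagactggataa
OLIG2, BRG1 without BAF155: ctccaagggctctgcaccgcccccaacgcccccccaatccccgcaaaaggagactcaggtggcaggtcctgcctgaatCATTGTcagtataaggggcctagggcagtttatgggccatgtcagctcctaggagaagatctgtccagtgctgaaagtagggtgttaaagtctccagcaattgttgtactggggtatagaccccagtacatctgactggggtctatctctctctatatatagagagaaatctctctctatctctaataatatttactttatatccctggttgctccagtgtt

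The first sequence was chosen as a BRG1 site of very high fold that holds RE1, the element bound by the repressor REST. The DLGAP3 site (chr1:34924718-34925239, at an annotated promoter 4.67 kb downstream of the coding start site of the gene, which encodes a postsynaptic scaffold protein) had a BAF155 fold of 12.02 and a BRG1 fold of 10.4. C11orf87 and DACH2 had the highest folds of BAF155 peaks without BRG1 near coding genes. The C11orf87 peak (chr11:109424914-109425255, exonic) reached a fold of 8.89 and the DACH2 peak (chrX:86263554-86263920, promoter) a fold of 6.99. The OLIG2 peak (chr21:33013766-33013908, intronic, 12.1 kb upstream of the coding start site) led the BRG1 peaks without BAF155 within 20 kb of a coding gene with a BRG1 fold of 4.50.

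BRG1 peaks lay inside wider BAF155 peaks. Of 15611 BRG1 peaks, 13448 (86.1%, interval 85.6 to 86.7%) were wholly contained in 1 BAF155 peak, and the BRG1 peak covered a median of 35.3% of its BAF155 partner. Midpoints of partners lay a median of 154 bp apart. Seen from BAF155, 14557 of 58352 peaks had a BRG1 peak, which is 24.9% (interval 24.6 to 25.3%). Intervals in this text are exact Clopper-Pearson 95% intervals of a share, or Woolf or Mantel-Haenszel 95% intervals of an odds ratio, and they cover counting error alone. The pair just inside the rule had 25.1% of 1 peak covered and the pair just outside it 24.1%, with 36 BAF155 peaks touching a BRG1 peak but falling short of the rule.

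The count of BRG1 peaks without BAF155 changed with the overlap rule. The 198 peaks were 1.27% of the BRG1 list (interval 1.10 to 1.46%), and this number became 5331 when 25% of both peaks had to be covered and 10997 at 50% of both, the median BAF155 peak being 2.79 times as wide as its BRG1 partner. When the BAF155 list was held to its 15611 peaks of highest fold, 6354 BRG1 peaks had no partner and 56.2% of the retained BAF155 peaks had BRG1.

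BAF155 peaks with BRG1 were wider and stronger than those without. Width enters the overlap rule, since a wide BAF155 peak has more room for a BRG1 peak, so the width contrast is a description. The ratio of median widths was 2.64 under this rule and 1.38 where 50% of both peaks had to be covered. The median width was 1069 bp (quartiles 614 and 1688 bp) with BRG1 and 405 bp (251 and 714 bp) without, and 218 bp (153 and 349 bp) for BRG1 peaks that had no BAF155. The median BAF155 fold was 3.95 (quartiles 3.48 and 4.72) with BRG1 and 3.13 (2.87 and 3.51) without, so the quartile ranges met at their edge. The median −log10 q of the BAF155 peaks was 4.97 with BRG1 and 2.42 without. BRG1 peaks without BAF155 had a median −log10 q of 1.55 and a median BRG1 fold of 3.40, against 2.21 and 3.54 for BRG1 peaks with BAF155, and none of them exceeded a BRG1 fold of 4.65. Over the 14557 paired BAF155 peaks the log2 folds of the antibodies had a Pearson r of 0.70 and a Spearman rho of 0.59, a description over peaks that share 1 input library.

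The share of BAF155 peaks with BRG1 rose with fold and with width. From the lowest to the highest decile of BAF155 fold (10 groups of equal size) it went from 1.64% to 75.9%, and from the narrowest to the widest decile from 1.51% to 69.5%. Width enters the overlap rule here too. Promoter peaks, with a midpoint within 1 kb of any annotated transcription start site (TSS), carried BRG1 more often than distal peaks of the same fold. In the sixth decile 41.4% of promoter peaks and 9.57% of distal peaks had BRG1, and in the top decile 86.2% and 73.4% did. Within deciles of width the promoter and distal shares lay close together, at 70.5% and 66.8% in the widest decile.

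**Figure D1:**
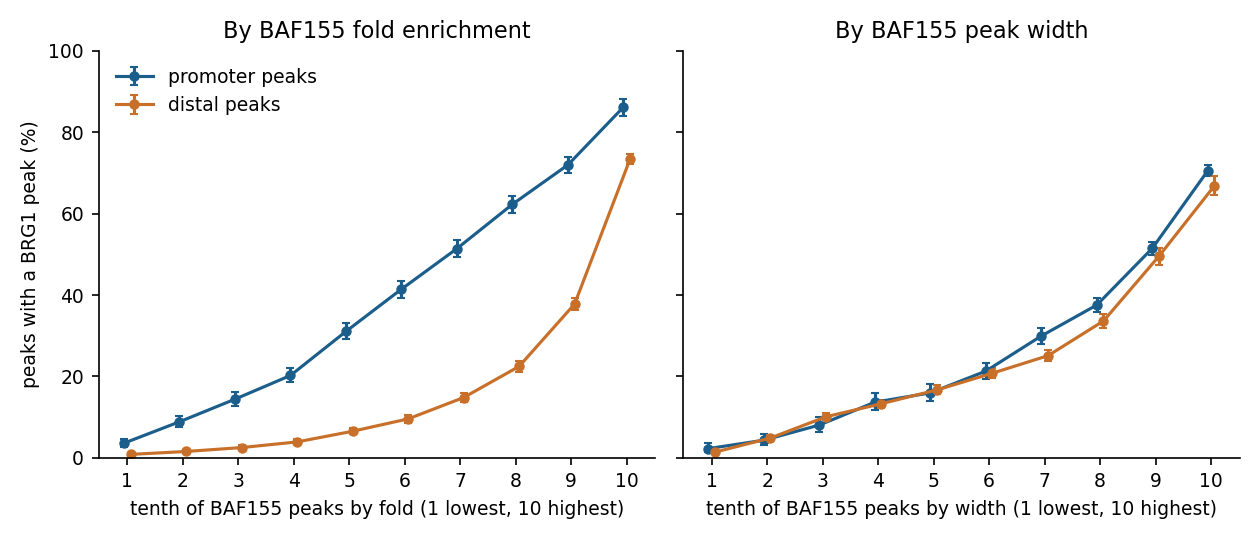
Share of BAF155 peaks with a BRG1 peak (percent, y axis) in deciles of BAF155 fold (left) and of BAF155 peak width (right), for promoter and distal peaks. Points are shares with exact 95% intervals of counting error. By fold the promoter curve lies above the distal one in every decile, from 3.599% against 0.845% in the lowest to 86.2% against 73.4% in the highest, and by width the curves run close together.

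A small group of BAF155 peaks held several BRG1 peaks. In 13812 the BRG1 peak was single, 665 held 2 and 80 held 3 or more. Those with 2 had a median width of 2785 bp and those with 3 or more of 5212.5 bp, and 74.9% and 62.5% of them were at promoters, against 48.9% of those with a single BRG1 peak. The widest BAF155 peak spanned 20090 bp of BCOR (chrX:40089981-40110070), which encodes a corepressor of a variant Polycomb complex, with 7 BRG1 peaks of at most 3.59-fold and SOX2. It was followed by peaks at SOX21 (11910 bp, 4 BRG1 peaks), CTBP2 (11553 bp, 5), TNRC18 (11506 bp, 7) and SOX14 (9800 bp, 2), whose BAF155 folds lay between 3.36 and 3.67. SOX21 and SOX14 encode transcription factors of the SOX family and CTBP2 a corepressor.

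BAF155 peaks with BRG1 lay at promoters more often than those without. Promoters took 50.2% of BAF155 peaks with BRG1 (interval 49.4 to 51.0%), 26.9% of those without (26.5 to 27.3%) and 37.9% of BRG1 peaks without BAF155 (31.1 to 45.0%), beside 32.7% of all BAF155 peaks. Introns held 28.8%, 43.7% and 36.9% of the classes and intergenic sequence 18.5%, 25.5% and 21.7%. The odds of a promoter were 2.73 times higher with BRG1 (interval 2.63 to 2.84). This ratio was 5.23 (4.97 to 5.51) within deciles of BAF155 fold, 1.11 (1.06 to 1.16) within deciles of width and 2.19 (2.06 to 2.33) within cells of both. The direction was opposite among peaks of −log10 q of at least 3 in both lists, where 31.4% of BAF155 peaks with BRG1 and 36.2% of those without were at promoters (odds ratio 0.807).

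**Figure D2:**
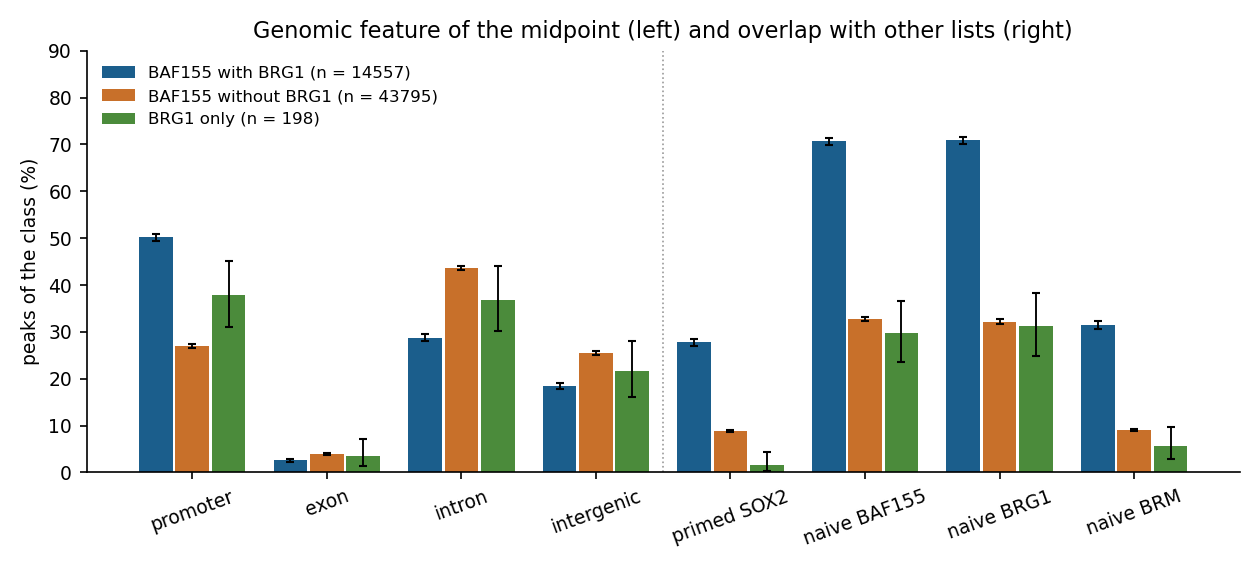
Percent of peaks in each class (bars, with exact 95% intervals of counting error) by the genomic feature of the midpoint, left of the dotted line, and by overlap with primed SOX2 and the naïve lists, right of it. BAF155 peaks with BRG1 have the tallest bars for promoter (50.2%), SOX2 (27.7%) and each naïve list, and the wide intervals of BRG1 peaks without BAF155 reflect their number of 198.

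Offsets from coding start sites were taken only for peaks within 1 kb of a TSS of a coding transcript, so closeness was set in advance. These were 6198 of 14557 BAF155 peaks with BRG1, 8288 of 43795 without and 55 of 198 BRG1 peaks without BAF155. Over all peaks of these classes the median distance to any TSS was 0.969, 6.09 and 2.24 kb. Among the peaks taken, the median midpoint of BRG1 peaks with BAF155 lay 28 bp downstream of the TSS. The median midpoint of BAF155 peaks with BRG1 lay 59 bp and that of BAF155 peaks without BRG1 35 bp downstream. Between 36.3% and 39.6% of these 3 sets lay within 100 bp of the TSS. The 55 BRG1 peaks without BAF155 had a median of 80 bp downstream, with 27.3% within 100 bp. The 200 bases at the midpoint had a median GC content of 58% in BAF155 peaks with BRG1 and 49% in those without, and 39.4% against 16.3% were rich in CpG. Among distal peaks these values were 47% and 46% GC, and 8.33% and 4.05% CpG-rich.

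The share of BAF155 peaks with BRG1 varied little between chromosomes, from 22.02% on chromosome 19 to 27.5% on chromosome 22. For promoter peaks the range was wider. Chromosome 19 had the lowest promoter share with BRG1 at 24.2%, next came the X chromosome at 30.1%, and chromosome 18 had the highest at 46.5%, while the distal shares ran from 16.4% to 22.2%. Chromosome 19 was also where 57.3% of BAF155 peaks were at promoters.

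SOX2 peaks were found at BAF155 peaks with BRG1 more often than at those without. SOX2 is a high-mobility-group factor that binds with OCT4 at pluripotency enhancers. Of BAF155 peaks with BRG1, 4038 (27.7%, interval 27.01 to 28.5%) overlapped a primed SOX2 peak, against 3888 of those without (8.88%, 8.61 to 9.15%) and 3 of 198 BRG1 peaks without BAF155 (1.52%, 0.314 to 4.36%), beside 13.6% of all BAF155 peaks. The overlap was most frequent away from promoters, with 44.04% of distal BAF155 peaks with BRG1 and 10.4% of distal peaks without. At promoters the shares were 11.6% and 4.83%. Read in the other direction, 49.0% of distal BAF155 peaks with SOX2 had BRG1, as did 12.4% of distal peaks without SOX2.

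The SOX2 difference moved with peak strength and width. The odds ratio of SOX2 overlap, with against without BRG1, was 3.94 (interval 3.75 to 4.14) over all BAF155 peaks, 1.62 (1.53 to 1.72) within deciles of BAF155 fold, 3.03 (2.87 to 3.21) within deciles of width and 0.996 (0.928 to 1.07) within cells of both. Among distal peaks alone it was 6.80 and fell to 1.33 (1.22 to 1.44) within cells of fold and width, and at promoters it went from 2.58 to 0.976 (0.841 to 1.13). At matched fold and width no difference in SOX2 overlap was thus detectable over all peaks, and a small one was left at distal peaks.

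**Figure D3:**
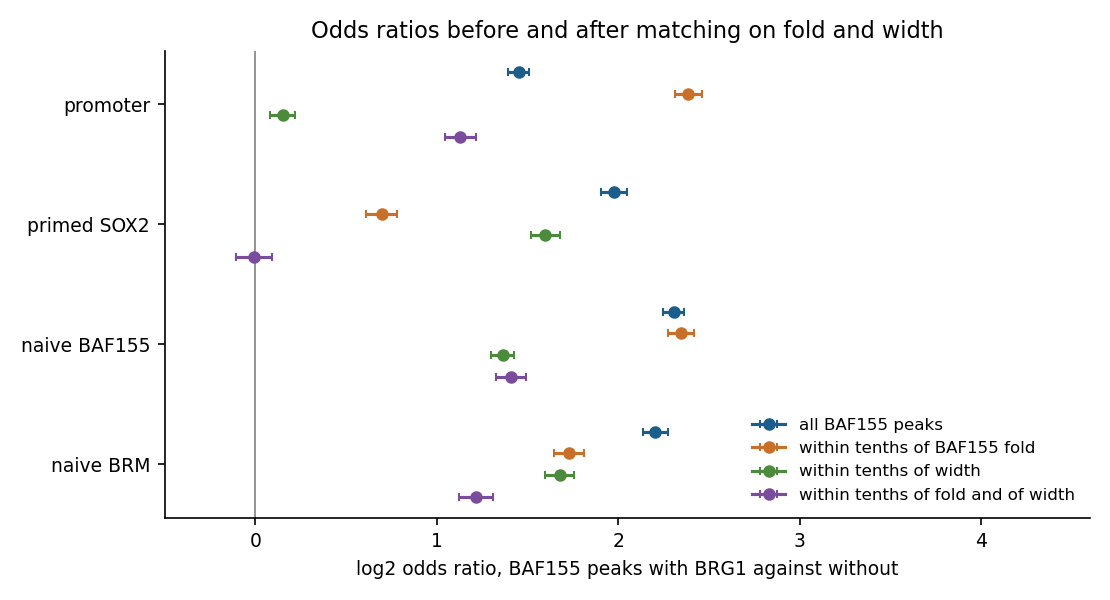
Log2 odds ratios (x axis) of BAF155 peaks with BRG1 against those without, for 4 properties, over all peaks and pooled within deciles of BAF155 fold, of width, and of both. Bars are 95% intervals of counting error and 0 means equal odds. For SOX2 the value falls from 1.98 to -0.00628 once both are matched, while for promoters (1.13) and naïve BAF155 (1.41) it stays above 0.

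SOX2 summits at sites of BAF155 and BRG1 mostly lay within the BRG1 peak. The median distance was 77 bp to the nearest BRG1 midpoint and 185 bp to the BAF155 midpoint over 4277 summits, and 66.6% of summits were closer to the BRG1 midpoint. BRG1 peaks are narrower and the nearest of several was taken, which by itself favours the shorter distance. A BRG1 peak contained 83.1% of these summits (interval 81.9 to 84.2%), with 86.3% at distal and 71.3% at promoter sites. Of the 9290 SOX2 peaks, 46.0% lay at BAF155 peaks with BRG1, 42.3% at BAF155 peaks without BRG1 and 11.6% at neither. Their median SOX2 folds were 7.71, 6.38 and 5.86. SOX2 peaks of the lowest decile of SOX2 fold had a BRG1 peak in 28.8% and a BAF155 peak in 83.1%, and those of the highest decile in 79.7% and 98.8%.

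BRG1 peaks of the highest fold had other features than the rest of the list. Promoters made up 62.5% of the lowest decile of BRG1 fold and 26.3% of the highest. SOX2 overlap rose from 18.9% in the lowest decile to 38.9% in the ninth, and was 28.1% in the highest. Naïve BAF155 peaks covered between 61.7% and 67.7% of the first 9 deciles and 77.9% of the highest. The 100 strongest BRG1 peaks, with a fold of at least 7.48, included 1 with SOX2 and 99 with naïve BAF155.

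The 10 strongest BRG1 sites near coding genes had no SOX2. They lay by S100A7A, ACSL6, DLGAP3, MAJIN, RPS19BP1, SLC12A1, UNC5D, CACNG2, CABP7 and SCGB1D1, with BRG1 folds from 9.06 to 11.99. Among these, CACNG2 encodes an AMPA receptor auxiliary subunit, UNC5D a netrin receptor, CABP7 a neuronal calcium-binding protein and SLC12A1 a kidney ion transporter. None of the 10 overlapped SOX2, 9 had a naïve BAF155 peak, and 9 of the BAF155 peaks were at most 931 bp wide, the one by ACSL6 spanning 2309 bp. The names led to a search for RE1, which is therefore a description. It was found by S100A7A, ACSL6, DLGAP3 and RPS19BP1, and not by CACNG2, UNC5D or CABP7. RE1 is the element of REST, a zinc finger repressor of neuronal genes in other cells.

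RE1 was concentrated in the strongest BRG1 peaks. It was found in 335 of 15611 BRG1 peaks (2.15%), in 240 of 1561 in the highest decile of fold (15.4%, interval 13.6 to 17.3%) and in at most 3.33% of any other decile. Of the 1000 strongest BRG1 peaks 200 held it, and of the 100 strongest 41. Regions of the same length moved by 5 kb to either side of the BRG1 peaks held it in 0.00961%. The RE1 match lay a median of 15 bp from the BRG1 midpoint. These BRG1 peaks had a median width of 223 bp, which limits the distance. In BAF155 peaks with RE1 it lay a median of 35 bp from the BAF155 midpoint in the 336 with BRG1 and 22 bp in the 145 without. RE1 was found in 0 of 198 BRG1 peaks without BAF155, which allows a share of up to 1.85% by the exact interval.

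BAF155 peaks with RE1 carried BRG1 more often than other BAF155 peaks when all were pooled, and most of them were of high fold. There were 481 such peaks, of which 336 (69.9%, interval 65.5 to 73.9%) had BRG1, against 24.6% of the 57871 without RE1. At promoters the shares were 87.8% and 37.9%, and at distal sites 63.1% and 18.1%. These peaks were narrow and strong, with a median width of 337 bp and a median BAF155 fold of 5.27, and 14 of them (2.91%) had SOX2. The odds ratio of RE1, with against without BRG1, was 7.11 (interval 5.85 to 8.65) over all peaks, 1.51 (1.20 to 1.90) within deciles of BAF155 fold and 4.17 (3.12 to 5.58) within cells of fold and width. By decile of BAF155 fold, RE1 peaks had BRG1 more often than others in the highest (86.4% of 332 against 75.2%), the ninth (53.7% of 67 against 48.5%) and the fourth (2 of 7), and less often in the other 7, as in the eighth (25.9% of 27 against 37.3%). In the naïve BAF155 list 477 of the 481 regions were also occupied (99.2%), and 426 of them had naïve BRM.

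**Figure D4:**
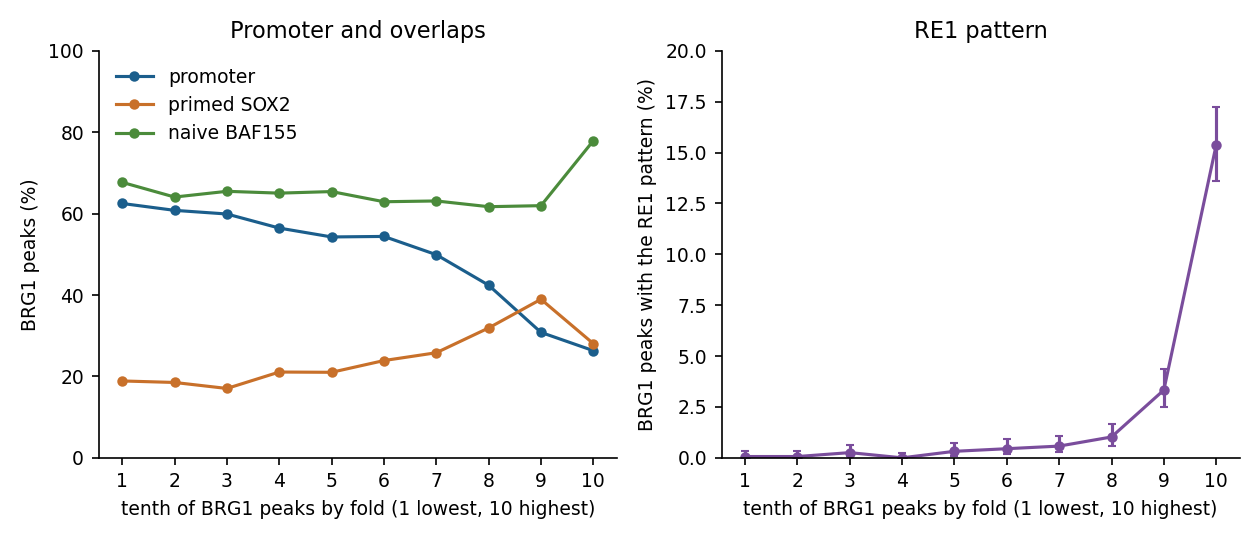
BRG1 peaks in deciles of BRG1 fold (x axis). The left panel gives the percent at promoters, with primed SOX2 and with naïve BAF155, and the right panel the percent with the RE1 pattern, with exact 95% intervals. Promoters fall from 62.5% to 26.3%, SOX2 peaks at 38.9% in the ninth decile, and RE1 rises to 15.4% in the highest.

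Patterns rich in G and C were more frequent in BAF155 peaks with BRG1, and this moved with GC content. In 200-bp windows at BAF155 midpoints the SP pattern (GGGGCGGGG) was found in 8.12% of peaks with BRG1 and 3.804% of those without, the TFAP2 pattern (GCCNNNGGC) in 19.04% and 10.8%, and the CTCF pattern (AGNNGGCGC) in 8.84% and 5.03%. Windows of the same length 2 kb away held them in 0.628%, 4.69% and 0.913% over all BAF155 peaks. Within promoters alone the odds ratios of SP, TFAP2 and CTCF were 1.47, 1.57 and 1.52, and within bins of GC content those of SP and TFAP2 were 0.954 (interval 0.876 to 1.04) and 1.02 (0.963 to 1.08). The odds ratio of the CTCF pattern was 1.98 (interval 1.79 to 2.18) within cells of fold and width, 2.12 (1.78 to 2.53) among distal peaks matched in that way, and 0.996 (0.921 to 1.08) within bins of GC content. The SOX core was less frequent with BRG1, at 21.4% against 29.0% and 23.4% 2 kb away, as was AP-1 (TGANTCA), at 7.18% against 10.4% and 5.95% 2 kb away. Within bins of GC content the odds ratio of the SOX core was 0.952 (interval 0.907 to 0.999) and that of AP-1 0.900 (0.838 to 0.967). At distal peaks matched on fold and width they were 0.800 and 1.004.

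The OCT4-SOX2 composite (TTGTNATGC, which can share bases with the SOX core), the joint site of both factors, was rare by its exact letters, and its difference changed direction with the setting. It was in 1.07% of BAF155 peaks with BRG1 (interval 0.911 to 1.25%) and 1.34% of those without (1.23 to 1.45%), against 0.479% of windows 2 kb away. Its odds ratio was 0.799 (0.669 to 0.954) over all peaks, 1.13 (0.934 to 1.37) over distal peaks and 0.738 (0.571 to 0.953) within cells of fold and width. The midpoints of BAF155 and BRG1 partners differ, as given above. In windows at the midpoints of distal BRG1 peaks themselves the composite was in 2.59% (2.25 to 2.97%), against 0.441% of windows 2 kb away, and the SOX core in 36.8% against 24.1%. At the midpoints of distal BAF155 peaks the SOX core was in 31.2% with BRG1 and 34.0% without, so its share varied with the placing of the window. With SOX2 the composite share at distal BRG1 peaks was 4.76% and without SOX2 1.08%. The CTCF pattern showed the reverse, in 0.882% of distal BRG1 peaks with SOX2 and 8.16% of those without.

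Sites with BRG1 in primed cells were more often occupied in naïve cells. A naïve BAF155 peak overlapped 70.7% of BAF155 peaks with BRG1 (interval 70.0 to 71.5%), 32.8% of those without (32.4 to 33.2%) and 29.8% of BRG1 peaks without BAF155 (23.5 to 36.7%). Naïve BRM, the other ATPase, covered 31.5%, 9.06% and 5.56% of the classes. Primed BRM peaks overlapped 10 BAF155 peaks with BRG1, 22 without and none of the BRG1 peaks without BAF155. At promoters with BRG1 the naïve BAF155 share was 87.7%, and at distal sites with BRG1 53.6%. The odds ratio of naïve BAF155 occupancy was 4.95 (4.75 to 5.15) over all peaks and 2.65 (2.51 to 2.81) within cells of fold and width.

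The same division of the naïve lists differed in its proportions. There 41371 of 62338 BAF155 peaks (66.4%, interval 66.0 to 66.7%) had BRG1, and 16351 of 57853 BRG1 peaks (28.3%) had no BAF155. The share with BRG1 went from 58.9% in the lowest decile of naïve BAF155 fold to 90.6% in the highest, against 1.64% to 75.9% in primed cells. The promoter odds ratio was 2.75 (2.64 to 2.87) in naïve cells and 2.73 in primed cells over all BAF155 peaks. Within deciles of BAF155 fold it was 3.05 (2.92 to 3.18) in naïve cells and 5.23 (4.97 to 5.51) in primed cells. Whether these differences belong to the state or to the libraries cannot be told apart, since each list rests on 1 library.

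Nearest genes were assigned by the coding TSS within 20 kb of the midpoint. This held for 63.5% of BAF155 peaks with BRG1, 48.3% of those without and 60.6% of BRG1 peaks without BAF155. Of 19962 protein-coding genes, 7182 (36%) had a BAF155 peak with BRG1, 7434 (37.2%) had BAF155 peaks but none with BRG1, and 5346 had none. Near genes, 30.4% of BAF155 peaks had BRG1.

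The core pluripotency genes all had a BAF155 peak with BRG1, 15 of 15, and 57.1% of their 49 BAF155 peaks had BRG1. Over the alternative rules and thresholds the share of these genes with such a peak ran from 26.7% to 100%. With 50% of both peaks covered it was 26.7%, beside 12.6% of all genes. At −log10 q of at least 3 it was 66.7%, beside 9.50% of all genes. In 14 of the 15 a peak held BAF155, BRG1 and SOX2 together, beside 6.83% of all genes. DNMT3B, a de novo DNA methyltransferase, was the exception, with 1 of 4 BAF155 peaks with BRG1 and no SOX2 there. POU5F1, which encodes OCT4, had BRG1 in both of its 2 BAF155 peaks, PRDM14 in 3 of 4 with SOX2 at each of the 3, LIN28B in 4 of 5, and NANOG in 1 of 4. Markers of the primed state had such a peak in 14 of 15 genes, CYTL1 having no BAF155 peak, and markers of the naïve state in 5 of 15, near the share of all genes. SOX11 and SALL1 had BRG1 in each of their 3 BAF155 peaks. Among naïve markers, KLF5 had 3 of 8, TFAP2C 2 of 4 and ZFP42 0 of 2 peaks with BRG1, and KLF17 had no BAF155 peak within this distance.

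Counted by gene, signalling lists had BAF155 peaks with BRG1 more often than the 36% of all genes. This count takes no account of how many BAF155 peaks a gene has, and by peak the contrast was smaller. BRG1 was at 50.6% of NODAL and BMP, 43.2% of FGF and ERK and 38.5% of WNT peaks. It was at 36.8% of Eph and 32.7% of axon guidance peaks, beside 30.4% of all gene-linked BAF155 peaks. NODAL and BMP pathway genes had a BAF155 peak with BRG1 in 23 of 25, among them SMAD3, a NODAL effector, with 5 of 8 peaks, and ID1 and ID3, BMP targets, with 3 of 5 and 4 of 4. LEFTY2, which encodes a secreted NODAL inhibitor, and SMAD5 were the exceptions. WNT pathway genes had one in 30 of 33, with GSK3B, the kinase of the β-catenin destruction complex, at 4 of 4 peaks. FGF and ERK genes had one in 19 of 24 and in 14 of these 24 with SOX2, including the feedback inhibitors SPRY1 (3 of 5) and SPRY2 (2 of 2). Eph receptor and ephrin genes had one in 19 of 22 and axon guidance genes in 22 of 25. With SOX2 as well, such a peak was found in 3 of 22 and 3 of 25 (13.6% and 12%), beside 6.83% of all genes. Over the alternative rules and thresholds the shares of genes ran from 28% to 92% for NODAL and BMP, 36.4% to 90.9% for WNT, 29.2% to 79.2% for FGF and ERK, 18.2% to 86.4% for Eph and 24% to 88% for axon guidance.

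Lineage regulators differed in the share of their BAF155 peaks with BRG1. Neuroectoderm regulators had 172 BAF155 peaks over 33 genes, and 37 of these (21.5%) had BRG1, compared with 30.4% over all gene-linked peaks. PAX6, SOX1, FEZF2 and EMX2, transcription factors of the early neural tube and forebrain, each had 6 or 7 BAF155 peaks and none with BRG1, while NES had 4 of 7 and MEIS2 3 of 4. Mesoderm and endoderm regulators had 27 of 90 peaks with BRG1 (30%) and trophoblast regulators 14 of 47 (29.8%), near that of all gene-linked peaks. By gene, 22 of 33 neuroectoderm, 16 of 23 mesoderm and endoderm and 8 of 13 trophoblast regulators had a BAF155 peak with BRG1, beside 36% of all genes. With 50% of both peaks covered the shares of genes with such a peak were 9.09%, 26.1% and 7.69%, beside 12.6% of all genes. At −log10 q of at least 3 they were 24.2%, 8.70% and 23.1%, beside 9.50% of all genes. With SOX2 as well, such a peak was found in 14 of 33 (42.4%), 9 of 23 (39.1%) and 4 of 13 (30.8%), beside 6.83% of all genes. FOXA2 had 3 of 7 peaks with BRG1 and SOX17 0 of 5. HOX genes stood lowest among developmental lists, with 7 of 72 peaks (9.72%) and 6 of 39 genes, while 25 had BAF155 peaks without BRG1.

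Subunits of chromatin complexes and housekeeping families differed as well. BAF subunit genes had a peak with BRG1 in 24 of 30 and Polycomb genes in 18 of 24, beside 36% of all genes. In both lists each of these genes had it at a promoter, as did 6129 of the 7182 such genes among all coding genes. By peak BRG1 was at 45.5% of BAF subunit and 43.4% of Polycomb peaks, beside 30.4% of all gene-linked BAF155 peaks. Over the alternative rules and thresholds the shares of genes ran from 23.3% to 80% and from 20.8% to 75%. SMARCA4, which encodes BRG1, had 1 of 1 and SMARCC1, which encodes BAF155, 0 of 2. Ribosomal protein genes had one in 21 of 81, replication-dependent histone genes in 8 of 69, zinc finger genes of chromosome 19 in 23 of 251 and olfactory receptors in 3 of 415. In the histone and zinc finger lists most genes had BAF155 without BRG1 (58.0% and 54.2%). Blood cell markers had one in 1 of 20 (RUNX1) and liver cell markers in 2 of 20 (APOA1 and SERPINA1), below the 36% of all genes.

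**Figure D5:**
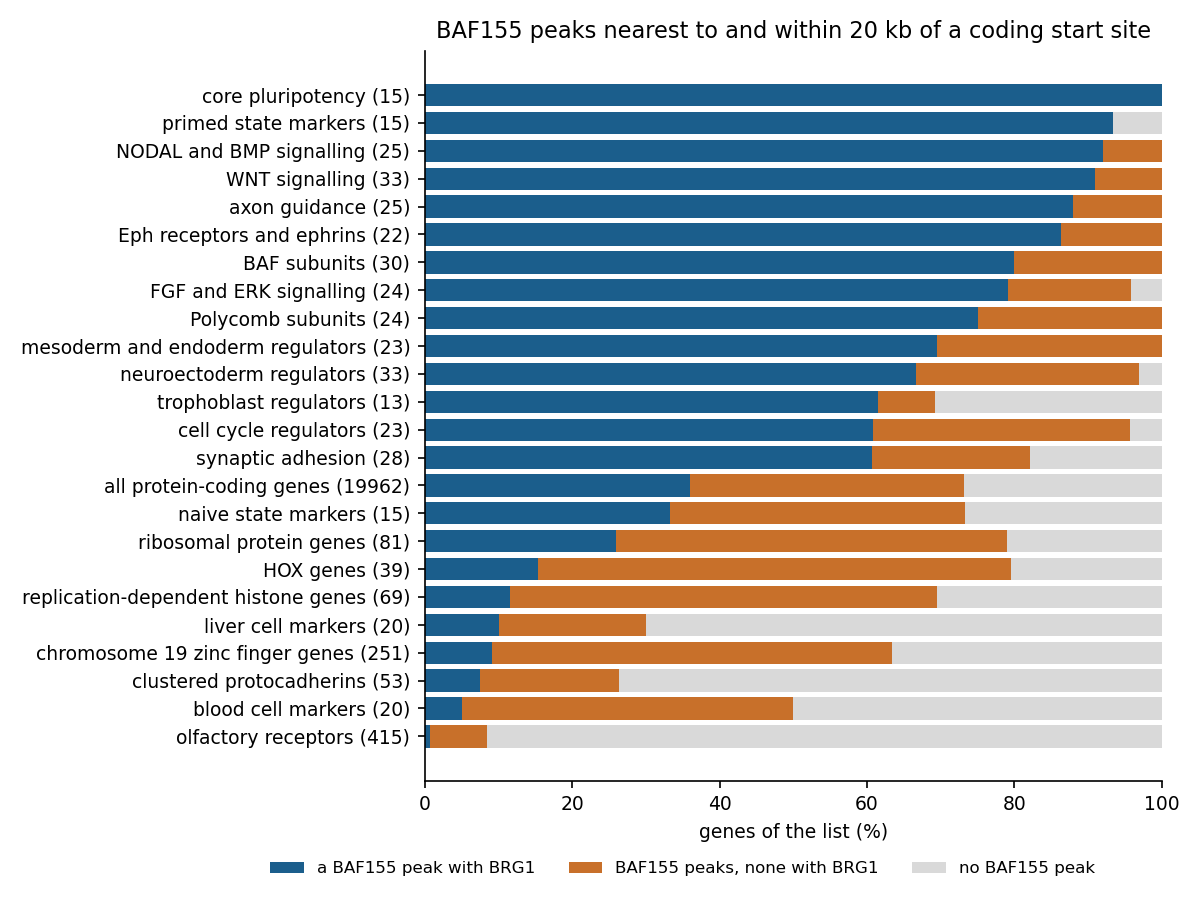
Genes of each list (number in brackets) by their BAF155 peaks within 20 kb of a coding start site, in percent of the list. The bars run from core pluripotency, with 100% of genes having a BAF155 peak with BRG1, to olfactory receptors with 0.723%, and all protein-coding genes stand at 36.0%.

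Single genes differed in how many BAF155 peaks had BRG1. FOXP1, a forkhead repressor, and AUTS2, a neurodevelopmental gene, led with 8 peaks with BRG1 each, of 26 and 23 BAF155 peaks over 629 and 1195 kb. The ranking is by number of peaks, and the shares of these genes lay near the 30.4% of all gene-linked BAF155 peaks. MACF1 and TNS3 followed with 7, and the genes with 6 included SEPTIN9, TCF4, CUEDC1, PDE4D and DAB2IP. PDE4D and DAB2IP had no SOX2 at these. At the other end UNCX, a homeobox gene of 4.46 kb, had 11 BAF155 peaks and none with BRG1. CACNA1A, MAPKAP1 and PAX2 had 9 without BRG1, and ACTN4, ARHGAP24, ARHGEF10L, ESRRB, GAS7 and GNAS had 8. ESRRB encodes an orphan nuclear receptor of the pluripotency network.

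Peaks within 60 kb of 8 gene bodies were inspected one by one. Around SOX2 (chr3:181711925-181714436), 3 of 9 BAF155 peaks had BRG1, and each of these 3 had SOX2. They lay at -1.33, 4.51 and 45.3 kb from the gene start, with widths of 5627, 4254 and 2268 bp. A further wide peak of 4590 bp, 15.6 kb downstream, had SOX2 but no BRG1, and its BAF155 fold of 3.23 lay below those of these 3 peaks (3.91 to 4.86). At OTX2, a forebrain factor, 4 of 12 peaks had BRG1, and the BAF155 peaks at and just inside the promoter did not, with folds from 2.69 to 3.598. The widest there, 7729 bp with its centre 8.04 kb downstream of the start, had a BRG1 fold of 5.03.

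At SALL1, a zinc finger factor, 4 of 8 BAF155 peaks had BRG1, among them 1 of 5572 bp at the promoter. At PTPRZ1, a receptor phosphatase, 3 of 10 had it, at the promoter and at introns 51.4 and 65.9 kb downstream, and an intronic peak of fold 4.42 with SOX2 at 64.4 kb did not. EPHA2, an ephrin receptor, had 17 BAF155 peaks of which 4 had BRG1. The strongest, chr1:16115714-16116467 in intergenic sequence 39.98 kb downstream of the gene start, had a BAF155 fold of 9.64, a BRG1 fold of 6.26 and SOX2. Around LEFTY2 lay 13 BAF155 peaks, 3 of them with BRG1. These 3 lay 17.2, 41.6 and 59.3 kb downstream of its start, and none was assigned to LEFTY2 by the nearest coding TSS within 20 kb. Around TFAP2C, a naïve-state factor, lay 5 peaks, and the 2 with BRG1 were at and near its promoter (widths of 3090 and 3080 bp). At KLF17, another naïve-state factor, the 2 BAF155 peaks had folds of 2.84 and 2.62 and no BRG1.

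The strongest BAF155 peaks without BRG1 and the BRG1 peaks without BAF155 made short lists. The former lay by C11orf87, DACH2, ANKRD66, MYO5B, UNC5B, PLAT, HS3ST5, TSNARE1, OSBPL9 and BPIFB1, with BAF155 folds from 6.08 to 8.89, 3 of 10 with SOX2, 5 with a naïve BAF155 peak and RE1 at MYO5B and TSNARE1. The latter lay by OLIG2, SFN, BCL11B, ITGB7, SPDL1, TGM2, RTL1, GDF5, NT5C3A and LRATD1, with BRG1 folds from 3.89 to 4.50, widths from 133 to 261 bp and no SOX2. Their −log10 q ran from 2.44 to 3.65. Of these, SFN (chr1:26862817-26862949, 0.266 kb upstream of the coding start site) encodes an epithelial 14-3-3 protein and TGM2 a transglutaminase, and both were at promoters. A site without a call in 1 list can still hold signal below that list's threshold, and the part of this in the classes was not tested.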

How the data were processed

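The series has 14 samples (inputs included), and its 8 distinct ChIP-seq peak lists of BRG1, BAF155, BRM and SOX2 were used. The study's supplement gives read totals, which were not used here, and the lists hold no counts. Reads were trimmed, mapped to hg38 and freed of duplicates by the authors, whose processing notes name Bowtie2 2.3.4, FastQC 0.10.1 and SAMtools 0.1.19. Peaks were called by the authors with MACS2 against input, broad for BAF subunits and narrow for SOX2. The deposited fold enrichment is a ratio to input, the deposited significance is −log10 of p or q, and the deposited score is a rescaled integer that was not used. The lists of both primed SOX2 libraries were identical and were counted as 1 sample, and the primed BRM list, which overlapped 32 BAF155 peaks, was not compared further.

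Regions were intersected with bedtools 2.31.1 (25% of either). Midpoints were annotated with GENCODE 44, with promoters within 1 kb of a TSS, and genes were assigned within 20 kb. Shares have Clopper-Pearson intervals (scipy 1.17.1), and odds ratios have Woolf or, over deciles, Mantel-Haenszel intervals. Patterns were searched on both strands with pysam 0.24.0 in 200-bp windows, or whole peaks for RE1. The scripts (Python 3.11.15, pandas 2.3.3, numpy 2.4.6, matplotlib 3.10.9) were tested on simulated data. With 1 library per group no p-value was computed. Named sites were, per class, the 10 of highest fold near coding genes (by BRG1 fold where BRG1 was present), the 10 genes with most peaks with BRG1 and the 10 with most among genes without any, members of the gene lists, and peaks within 60 kb of 8 genes. Members and lists were chosen with earlier results of these data known. Alternatives covered the overlap rule, peak threshold, list length, region width, promoter definition, gene distance and matching on fold, width and GC. Some of the sites and genes that the naming rule covers are not reported here.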

Additional observations from a re-analysis of the deposited data

How the results depend on the processing

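Each list rests on 1 library with 1 input shared by BRG1 and BAF155, so library, antibody and threshold cannot be told apart from occupancy. No paired analysis was possible because the replicate numbers are shared by the SOX2 libraries alone, whose lists are identical. Of 71 alternatives of the compared results, 7 reversed the sign of a log2 ratio. The rest include shares, peak counts and gene percentages, which could move but had no sign to reverse. In 16 alternatives the value moved by less than the counting interval or 1.5 times. The cause of the changes was not tested.

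With 25% of both regions covered, the share with BRG1 was 17.6%, BRG1 without BAF155 5331 peaks, the log2 width ratio 0.90, and the log2 odds ratios 1.06 for promoters, 1.65 for SOX2, 2.01 for naïve BAF155 and 0.0194 for the composite, with 26.1% of genes. At 50% of both these were 7.91%, 10997 peaks, 0.46, 0.81, 1.03 and 2.00, with 12.6% of genes. At −log10 q of at least 3 (27065 BAF155 and 4482 BRG1 peaks) they were 15.9%, 111 peaks, 0.49, -0.31, 1.37, 1.34 and, for the composite, 0.19, with 9.50% of genes. With BAF155 cut to the length of the BRG1 list they were 56.2%, 6354 peaks and 1.27, with 1.19 for SOX2, 1.83 for naïve BAF155 and 18.98% of genes. With 500-bp regions they were 20.2%, 3845 peaks, 1.02 for promoters, 1.88 for SOX2, 1.90 for naïve BAF155 and -0.0322 for the composite, with 28.9% of genes. A distance of 50 kb gave 38.7% of genes.

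The promoter log2 odds ratio was 1.29 at 2 kb and 1.67 with coding genes alone. Within deciles of fold it was 2.39, that of SOX2 0.70 and that of the composite -1.16, and GC strata gave 0.21 for the composite. The following were chosen after seeing the data. Within deciles of width the values were 0.15 for promoters, 1.60 for SOX2, 1.36 for naïve BAF155 and 0.53 for the composite. Within both they were 1.13, -0.00628, 1.41 and -0.44. Distal peaks alone gave 2.77 for SOX2, 1.91 for naïve BAF155 and 0.18 for the composite, and promoter peaks alone 1.37 for SOX2 and -0.78 for the composite.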
